A study of Saccharomyces cerevisiae with 23 samples.

Results

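The transcripts of 34 budding yeast genes for cytosolic translation factors, of 6256 genes on the array, were followed over 6 growth conditions. The genes were picked by their standard names and not by a threshold on measured values, though earlier results of these data were known when the group was proposed. They comprise 7 genes of start codon selection and the initiator tRNA complex, 5 of eIF2B, 6 of eIF3, 6 of the eIF4 group, 8 of elongation and 2 of termination. All 34 were matched to 1 probe each, and their probes were well above background on all 23 arrays.

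Translation initiation in yeast brings the small ribosomal subunit, carrying initiator tRNA bound to eIF2, to the capped 5′ end of an mRNA with the help of the eIF4 factors and eIF3. eIF2B reloads eIF2 with GTP after each round, and it is the target of the general control response to amino acid starvation. The elongation factors eEF1A, eEF2 and the fungal eEF3 then drive the ribosome along the message until the release factors eRF1 and eRF3 end synthesis. In growing yeast many of these genes are expressed together with the genes of ribosomal proteins.

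Total RNA was measured on 2-colour Agilent arrays. All cultures were of the haploid strain BY4741a carrying pdr5Δ, which removes a drug efflux pump, grown on 2% glucose in synthetic complete medium. The treatment medium of every group held 0.25 mM EDTA, a chelator of divalent metals, and 0.1% DMSO. The groups were untreated, 1 mM CuSO4, 2 mM ZnSO4, 5 µg/mL of a statin, the statin with 1 mM CuSO4, and the statin with 2 mM ZnSO4. A statin inhibits HMG-CoA reductase of sterol synthesis, and the labels do not name the compound. Each group had 3 biological samples except statin with ZnSO4, which had 2, and 6 of the 17 biological samples were hybridised on a pair of arrays.

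Precultures with statin were started at an OD600 of 0.09 and those without at 0.01. All cultures were then resuspended at 0.1 and collected near 0.4 with statin and near 0.8 without, so statin and culture density cannot be told apart. The Cy3 channel held the sample and the Cy5 channel a pool of RNA from all 6 conditions, with no dye swap. Levels below are log2 ratios of a sample over that pool, and differences are between group means of these ratios, ± the standard error of limma's fit. A gene was called at an adjusted p under 0.05 (Benjamini-Hochberg over the 5606 genes tested). RNA came from whole cultures, so a change in every cell and a change in some of the cells cannot be told apart.

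Arrays fell on 3 slides, and replicate numbers 1, 2 and 3 had a slide each. The share of spots well above background was 98.35 to 98.8% on the first slide, 95.67 to 97.43% on the second and 77.11 to 89.92% on the third. PDR5 and HIS3, which this strain lacks, were well above background on 0 arrays, LEU2 on 2, URA3 on 6 and MET17 on 15, with signals no higher than percentile 11.8 of all probes. The a-cell genes STE2, MFA1, MFA2 and BAR1 were above background on 21 to 23 arrays, at signal percentiles of 33.2 to 60.9, 14.9 to 31.9, 18.2 to 39.5 and 14.7 to 29. Of the alpha-cell genes, MF(ALPHA)1 and MF(ALPHA)2 were above it on 15 and 14 arrays, at percentiles no higher than 18.6 and 5.58. STE3 and SAG1 were above it on 22 and 23 arrays, at 18.5 to 30.8 and 21.5 to 32.6, which overlap the range of MFA1 and BAR1, so these genes do not settle the a-type label. The lowest correlation between any 2 arrays was r = -0.564 over genes. Since the labels give each channel's dye and the conditions could oppose each other, the ratios were left in that direction. Samples of 1 group correlated at r = 0.273 to 0.915, and the lowest value was that of statin with CuSO4 replicates 1 and 2.

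The members were lowest in untreated cultures and highest with CuSO4 alone. In the untreated group 29 of the 34 had a mean log2 ratio below 0, and with CuSO4 33 were above 0. The median level over the 34 was -0.19, -0.17 and -0.20 in the untreated samples and 0.58, 0.63 and 0.31 in the CuSO4 samples, so these groups did not overlap. The ZnSO4 samples had medians of -0.02, 0.01 and 0.17, and the statin samples -0.18, 0.13 and 0.04. With statin and CuSO4 the medians were -0.32, 0.23 and -0.09, and with statin and ZnSO4 they were 0.24 and 0.09. The statin with CuSO4 group was the most spread, with a median SD over members of 0.30 against 0.10 in the untreated group, and its replicate 2 lay above the other two.

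**Figure D1:**
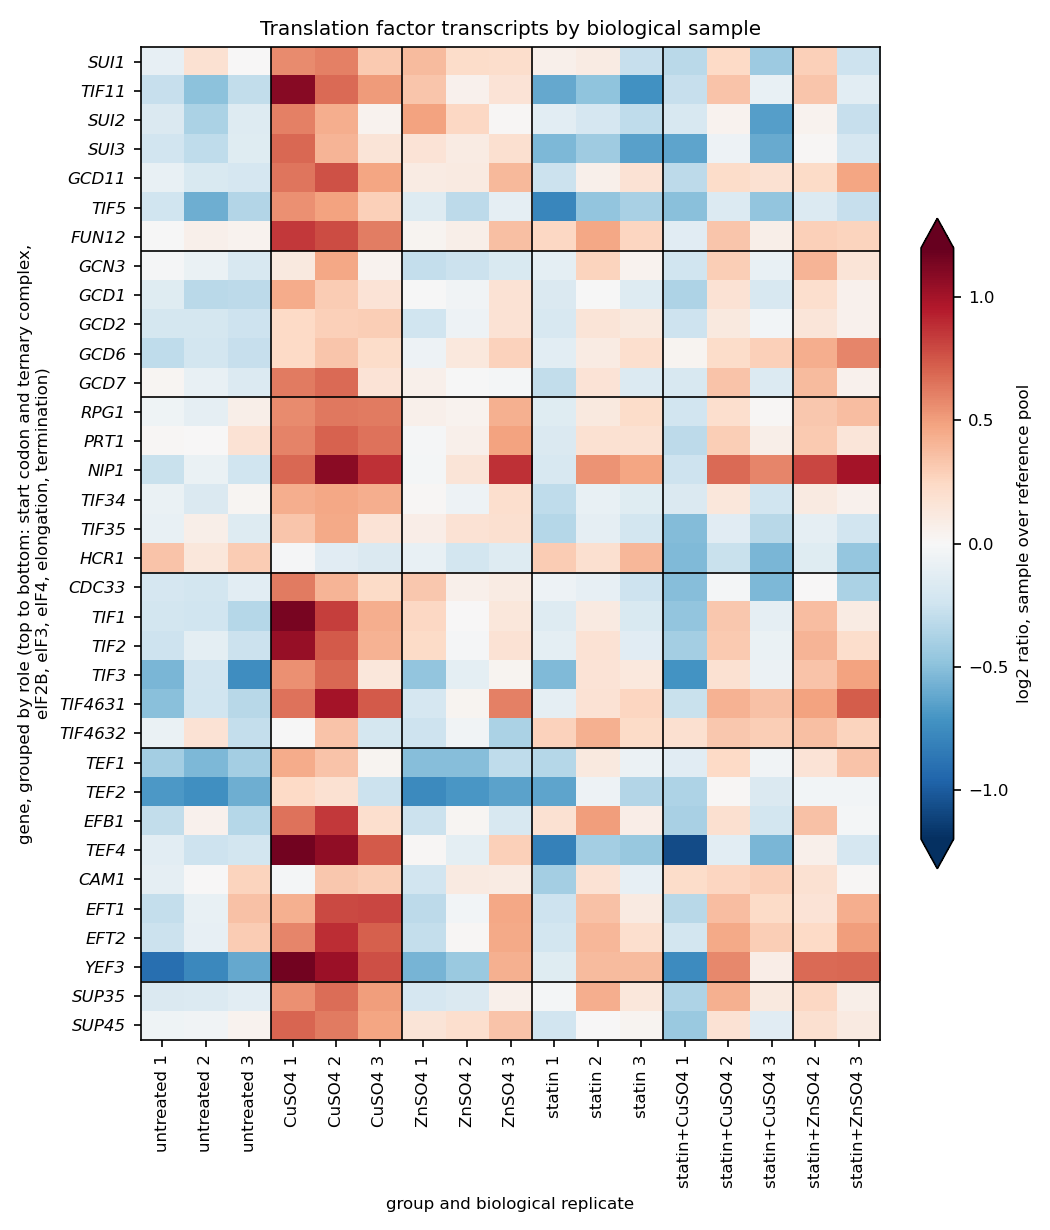
Colour map of the log2 ratio (sample over reference pool) of each of the 34 translation factor genes (vertical axis, grouped by role) in each of the 17 biological samples (horizontal axis, grouped by condition). Red is above the pool and blue below it, and the scale is cut at 1.2 in both directions. The 3 CuSO4 columns are red in most genes, while HCR1 is below the pool in all 3 (-0.01, -0.14 and -0.17). TIF4632 (-0.003, 0.34 and -0.21), TEF2 (0.24, 0.18 and -0.25) and CAM1 (-0.02, 0.32 and 0.29) are below it in part of them.

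**Figure D2:**
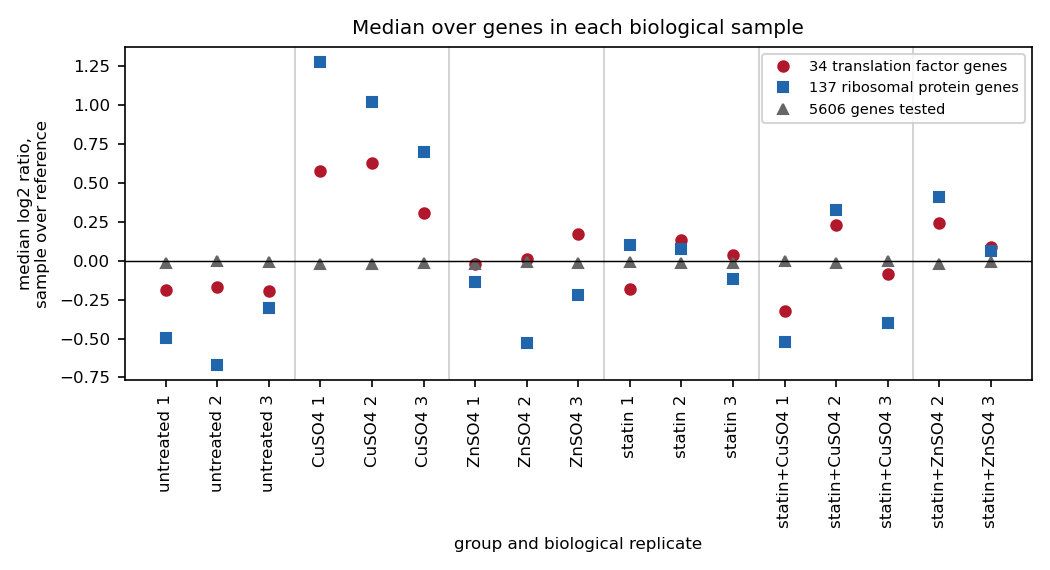
Median log2 ratio (vertical axis) in each biological sample (horizontal axis) over the 34 translation factor genes (circles), the 137 ribosomal protein genes (squares) and the 5606 genes tested (triangles). The CuSO4 samples stand highest for both gene groups, and the median over all tested genes stays near 0 in every sample.

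Copper in cells without statin was set against untreated cultures, both in medium with EDTA. A metal's own effect and that of its binding to the chelator cannot be told apart, here or for zinc. Translation factor transcripts rose in every part of the machinery, from start codon selection to termination. Of the 34 genes 29 were called higher and 1 lower, where 34.6% of all tested genes were called, 18% higher and 16.6% lower. The median difference over the members was 0.66, against -0.04 over all tested genes. YEF3, the gene of eEF3, rose most, 3.36-fold (1.75 ± 0.29, n = 3 per group, adjusted p = 0.000263). HCR1, the gene of the eIF3j subunit, was the 1 gene called lower (-0.37 ± 0.11, adjusted p = 0.0171). The 30 called genes had the same direction on each of the 3 slides, which also served to call them. Without slide 3, 22 were called, all higher (22.4% of all genes called). The calls of SUI2, GCD7, TIF35, HCR1, EFT1 and EFT2 were each lost without some 1 of the untreated or CuSO4 samples, with adjusted p of 0.0504 to 0.133.

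The same dose of copper in cells with statin was set against statin alone. Here 1 member was called higher and 1 lower (16.7% of all genes called, 9.44% higher and 7.31% lower). The median difference over the members was -0.03 against 0.01 over all genes, with slide medians of -0.10, 0.12 and -0.06. The gene called higher was TIF11, of eIF1A, by 0.60 ± 0.17 (adjusted p = 0.0266), and the gene called lower was HCR1, by -0.75 ± 0.11 (adjusted p = 0.000169). YEF3 had a difference of -0.24 ± 0.29, with an interval of -0.85 to 0.38, and TIF1 one of -0.01, with an interval of -0.41 to 0.39. The call of TIF11 was lost without statin replicate 1 (adjusted p = 0.072) or 3 (0.0997), or without statin with CuSO4 replicate 2 (0.43, adjusted p = 0.107) or 3 (0.0518). HCR1 stayed called under each of the 27 alternative settings. With the replicate number as a block, which the data bear out as a pairing in this comparison, 4 genes were called, 2 higher and 2 lower (24.6% of all genes called).

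The interaction, which is the copper difference with statin minus the copper difference without, tested whether the 2 responses differed. It was called for 18 of the 34 genes, all with a smaller value with statin, where 18.4% of all genes were called, 8.12% above 0 and 10.3% below. The median over the members was -0.66, against 0.04 over all genes. YEF3 had the largest value (-1.99 ± 0.41, adjusted p = 0.00304), followed by TEF4 (-1.21 ± 0.28, adjusted p = 0.00607) and EFB1 (-1.16 ± 0.27, adjusted p = 0.00609). The 18 genes had this direction on each of the 3 slides, which also served to call them. The slide medians over all 34 were -0.81, -0.63 and -0.58. Without statin replicate 3 or statin with CuSO4 replicate 1, 11 genes were called, and without statin with CuSO4 replicate 2 there were 28. The share of all genes called in these fits is not given here. Without slide 3, FUN12, EFB1 and YEF3 were still called, 3 genes in all (6.8% of all genes called). The interaction of statin with ZnSO4 was called for 0 of the 34 genes by limma (1.03% of all genes), and 0 had an unadjusted p under 0.05.

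**Figure D3:**
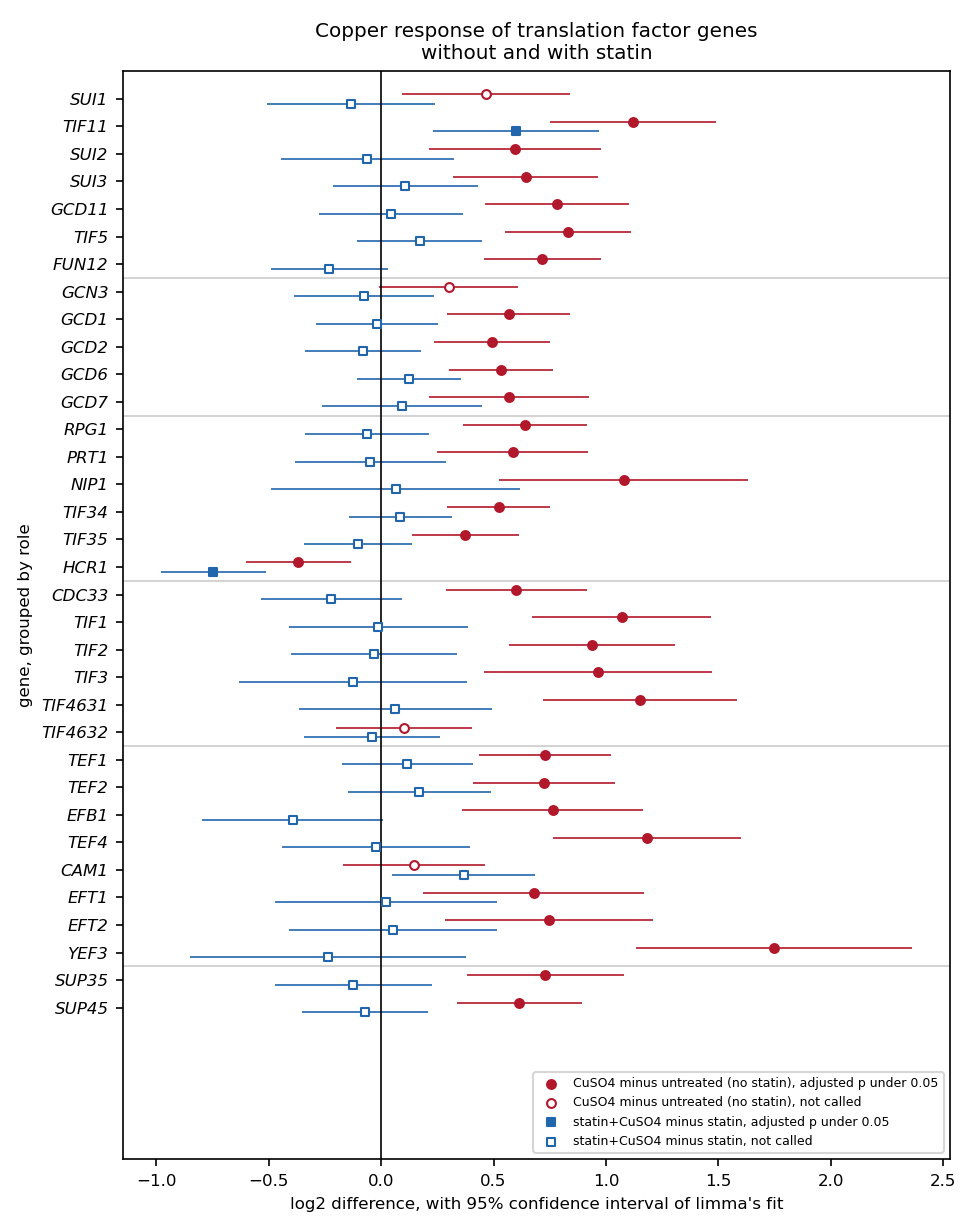
Log2 difference made by CuSO4 (horizontal axis) for each of the 34 translation factor genes (vertical axis, grouped by role), without statin (red circles, CuSO4 minus untreated) and with statin (blue squares, statin with CuSO4 minus statin). Filled symbols are genes called at an adjusted p under 0.05, and lines are 95% confidence intervals of limma's fit. Red circles lie above 0 except for HCR1 (-0.37), while the blue squares gather around 0 with TIF11 (0.60) and HCR1 (-0.75) called.

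The statin effect in cells that had copper was read from statin with CuSO4 against CuSO4 alone, which shares its samples with the comparisons above. The members fell as a group: 25 of 34 were called lower and 0 higher (44.3% of all genes called, 21.1% higher and 23.3% lower), with a median difference of -0.62 against 0.01 over all genes. TEF4, of the eEF1B gamma subunit, fell most, by 1.56 ± 0.20 (2.96-fold, adjusted p = 2.82e-05). YEF3 fell by 1.02 ± 0.29 (adjusted p = 0.0105), and without statin with CuSO4 replicate 1 its difference was -0.65 (adjusted p = 0.0598). Leaving out that replicate also moved the median to -0.44. Across all single samples left out, 17 to 30 genes were called, and 9 of the 25 calls were lost in at least 1 of these fits. NIP1 (-0.54), EFT1 (-0.58) and EFT2 (-0.55) had no overlap between groups but adjusted p of 0.102, 0.0523 and 0.0505.

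Zinc gave few calls among these genes. ZnSO4 against untreated, with the same untreated samples as the copper comparison, called 2 genes higher and 1 lower (16.6% of all genes called, 8.81% higher and 7.78% lower), with a median difference of 0.20 against 0.00 over all genes. Of the 34 differences 29 were above 0. The called genes were TIF11 (0.54 ± 0.17, adjusted p = 0.0453), GCD6, of the catalytic eIF2B subunit (0.38 ± 0.11, adjusted p = 0.0247), and HCR1 (-0.42 ± 0.11, adjusted p = 0.0161). In statin cultures ZnSO4 called the same 3 genes in the same directions: TIF11 at 0.71 ± 0.19 (adjusted p = 0.0161), GCD6 at 0.45 ± 0.12 (adjusted p = 0.0151) and HCR1 at -0.60 ± 0.12 (adjusted p = 0.00259), where 22% of all genes were called, 11.7% higher and 10.3% lower. The median difference there was 0.25, against 0.01 over all genes, again with 29 of 34 above 0. None of the 3 calls without statin held without untreated replicate 1 or 3 or without ZnSO4 replicate 2, where the counts were 0, 0 and 0, and 1 gene was called without ZnSO4 replicate 3. The call of TIF11 without statin was lost in 11 of the 17 fits without 1 sample. In statin cultures, leaving out statin with ZnSO4 replicate 3 or slide 3 left 1 sample in that group, so no count is given for those fits. TIF11 and GCD6 each lost the call in statin cultures in 2 of the fits without 1 sample, and HCR1 in 1, fits that left 1 sample in a group included. With the replicate block, which the data bear out as a pairing for ZnSO4 against untreated, 6 genes were called, 5 higher and 1 lower (24.3% of all genes called).

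Copper and zinc were also compared directly. Without statin 15 genes were higher with CuSO4 than with ZnSO4 and 0 lower (15.7% of all genes called, 9.03% higher and 6.69% lower). All 34 differences were above 0, with a median of 0.48 against -0.01 over all genes. YEF3 had a difference of 1.18 ± 0.29 (adjusted p = 0.012), TEF4 0.92 ± 0.20 (adjusted p = 0.00506) and TEF2, 1 of 2 genes for eEF1A, 0.76 ± 0.15 (adjusted p = 0.00303). The count fell to 6 without CuSO4 replicate 1, 7 without CuSO4 replicate 2, 8 without ZnSO4 replicate 1 and 6 without ZnSO4 replicate 2. It was 24 with the replicate block (25.3% of all genes called), which the data bear out as a pairing here. TIF5, FUN12, TEF1, TEF2 and TEF4 were called under all 27 alternative settings. In statin cultures limma called 0 of the 34 genes between CuSO4 and ZnSO4 (0.482% of all genes), 5 had an unadjusted p under 0.05, and 33 of the differences were below 0. The median difference there was -0.22 over the members, against 0.01 over all genes. Without statin with CuSO4 replicate 2, 4 genes were called lower.

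Statin alone against untreated called 2 of the 34 genes, both higher (36.8% of all genes called, 18% higher and 18.8% lower), with a median difference of 0.14 against -0.01. They were YEF3 (0.97 ± 0.29, adjusted p = 0.016) and GCD6 (0.33 ± 0.11, adjusted p = 0.029). YEF3 lost its call without untreated replicate 1 (0.90, adjusted p = 0.0556), statin replicate 2 (0.88, 0.0527) or statin replicate 3 (0.88, 0.0602). GCD6 lost it without untreated replicate 1 (0.31, adjusted p = 0.0825) or 3 (0.32, 0.0712) and without statin replicate 2 (0.31, 0.0762) or 3 (0.26, 0.125). In cells with zinc, statin called 5 genes higher and 0 lower (28.6% of all genes called, 14.4% higher and 14.2% lower). These were GCN3, GCD6, TIF4632, TEF1 and TEF2, at 0.52, 0.40, 0.54, 0.69 and 0.67, with a median over the 34 of 0.15 against 0.01 over all genes. Each of the 5 was lost without statin with ZnSO4 replicate 3, a fit that left 1 sample in that group, as did leaving out slide 3. Without that replicate the differences of TEF1 and TEF2 were 0.61 and 0.67. With that fit counted, GCN3, GCD6 and TIF4632 each lost the call in 4 of the 17 fits without 1 sample, and TEF1 and TEF2 in 1.

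Among the genes of start codon selection and the initiator tRNA complex, 6 of 7 rose with CuSO4 without statin (18% of all genes higher). TIF11 (YMR260C), the gene of eIF1A, which helps the small subunit scan for the start codon, was at -0.27, -0.49 and -0.30 in untreated samples and at 1.10, 0.68 and 0.51 with CuSO4. It was at 0.33, 0.05 and 0.17 with ZnSO4, -0.62, -0.48 and -0.73 with statin, -0.28, 0.34 and -0.09 with statin and CuSO4, and 0.34 and -0.13 with statin and ZnSO4. Every sample with a metal was above every sample without one in the same statin state. Its copper difference was 2.17-fold (1.12 ± 0.17, adjusted p = 0.000152), and the interaction was not called (-0.52 ± 0.25, adjusted p = 0.168). TIF11 was the 1 member called higher with copper in both statin states.

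FUN12 (YAL035W), the gene of eIF5B, which joins the ribosomal subunits, was at -0.01, 0.06 and 0.04 untreated and at 0.85, 0.78 and 0.62 with CuSO4. With statin it was at 0.25, 0.47 and 0.25, and with statin and CuSO4 at -0.13, 0.33 and 0.07. Copper thus raised it without statin by 0.72 ± 0.12 (adjusted p = 0.000349), the difference with statin was -0.23 ± 0.12 (adjusted p = 0.238), and the interaction was -0.95 ± 0.17 (adjusted p = 0.00151). TIF5 (YPR041W), of eIF5, the factor that triggers GTP hydrolysis on eIF2, went from -0.24, -0.58 and -0.35 to 0.55, 0.48 and 0.29 with CuSO4 (0.83 ± 0.13, adjusted p = 0.000174). Its statin samples were at -0.79, -0.47 and -0.39 and overlapped those with statin and CuSO4 (-0.50, -0.16 and -0.47).

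The 3 subunits of eIF2 itself rose with CuSO4: GCD11 (YER025W, gamma, which binds the tRNA) by 0.78 ± 0.15, SUI3 (YPL237W, beta) by 0.64 ± 0.15 and SUI2 (YJR007W, alpha, the phosphorylated subunit) by 0.60 ± 0.18, with adjusted p of 0.000944, 0.00409 and 0.0184. Statin with CuSO4 was lower than CuSO4 alone for each, by -0.59, -0.85 and -0.63. Of the 3, GCD11 was the one with a called interaction (-0.74 ± 0.21, adjusted p = 0.024), and SUI2 and SUI3 had adjusted p of 0.089 and 0.101. The interaction call of GCD11 was lost in 7 of the 17 fits without 1 sample. SUI1 (YNL244C), the gene of eIF1, which guards start codon choice, was at -0.10, 0.19 and 0.00 untreated and 0.56, 0.60 and 0.32 with CuSO4. These samples did not overlap, but the difference of 0.46 ± 0.18 missed the threshold (adjusted p = 0.0521). The call of SUI2 did not hold on omitting untreated replicate 2 (adjusted p = 0.0724) or CuSO4 replicate 1 (0.0901) or 2 (0.0582).

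Of the 5 eIF2B genes 4 rose with CuSO4, by 0.49 to 0.57 (18% of all genes higher). GCD6 (YDR211W), the catalytic epsilon subunit, was at -0.31, -0.22 and -0.28 untreated, 0.24, 0.34 and 0.22 with CuSO4, and -0.06, 0.13 and 0.27 with ZnSO4. It was at -0.13, 0.10 and 0.20 with statin, 0.03, 0.22 and 0.29 with statin and CuSO4, and 0.44 and 0.58 with statin and ZnSO4. The untreated samples lay below all 14 others. GCD6 was called higher in each of the 3 comparisons against untreated, which share the untreated samples. Its copper interaction was not called (-0.41 ± 0.15, adjusted p = 0.0807).

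GCD1 (YOR260W, gamma, also of the catalytic part), GCD2 (YGR083C, delta) and GCD7 (YLR291C, beta) rose with CuSO4 by 0.57 ± 0.13, 0.49 ± 0.12 and 0.57 ± 0.17, with adjusted p of 0.00302, 0.0055 and 0.0164. GCD7 lost its call without untreated replicate 3 (adjusted p = 0.0539) or CuSO4 replicate 1 (0.0667) or 2 (0.0724). All 3 were lower with statin and CuSO4 than with CuSO4 alone, by -0.43, -0.33 and -0.49, and the interaction was called for GCD1 (-0.59 ± 0.18, adjusted p = 0.0337) and GCD2 (-0.57 ± 0.17, adjusted p = 0.0296). The statin calls in copper cultures were lost for GCD1 without CuSO4 replicate 1 or statin with CuSO4 replicate 1, for GCD7 without these or CuSO4 replicate 2 or statin with CuSO4 replicate 3, and for GCD2 without any of these 4 or CuSO4 replicate 3 (adjusted p of 0.0614 to 0.18). Each of the 2 interactions was lost without some 8 of the 17 samples (adjusted p of 0.0522 to 0.0939). GCN3 (YKR026C), the alpha subunit that senses phosphorylated eIF2, had a copper difference of 0.30 ± 0.15 (adjusted p = 0.126). Its levels were 0.11, 0.46 and 0.04 with CuSO4 and -0.28, -0.25 and -0.18 with ZnSO4, and it was the one eIF2B gene whose ZnSO4 samples all lay below the untreated mean.

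The core subunits of eIF3, the scaffold on the small ribosomal subunit, rose with CuSO4, 5 of 5 (18% of all genes higher). The loosely bound HCR1 fell (16.6% of all genes lower). NIP1 (YMR309C, eIF3c) was at -0.27, -0.08 and -0.24 untreated and at 0.69, 1.08 and 0.88 with CuSO4 (1.08 ± 0.26, 2.11-fold, adjusted p = 0.00477). Its ZnSO4 samples were far apart, at -0.03, 0.16 and 0.88, as were those of statin with CuSO4 (-0.25, 0.68 and 0.59). RPG1 (YBR079C, eIF3a), PRT1 (YOR361C, eIF3b), TIF34 (YMR146C, eIF3i) and TIF35 (YDR429C, eIF3g) rose by 0.64 ± 0.13, 0.59 ± 0.16, 0.52 ± 0.11 and 0.37 ± 0.11, with adjusted p of 0.0014, 0.00963, 0.00162 and 0.0178. TIF35 was no longer called without untreated replicate 1 (adjusted p = 0.0556) or 3 (0.0675) or CuSO4 replicate 1 (0.0507) or 2 (0.08). Copper made no called difference to the 5 in statin cultures (-0.10 to 0.09), and the interaction was called for RPG1 (-0.70 ± 0.18, adjusted p = 0.0135) and TIF35 (-0.48 ± 0.16, adjusted p = 0.0479). The interaction of TIF35 was lost in 13 of the 17 fits without 1 sample (adjusted p of 0.0542 to 0.131), with Agilent's processed signals (0.0721), with median centring (0.136), without background correction (0.0506) and with all probes tested (0.0517).

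HCR1 (YLR192C, eIF3j), which binds eIF3 at the mRNA entry channel and also acts in termination, was lower with either metal in either statin state. It was at 0.34, 0.14 and 0.30 untreated, -0.01, -0.14 and -0.17 with CuSO4, and -0.09, -0.22 and -0.16 with ZnSO4. With statin it was at 0.30, 0.19 and 0.40, with statin and CuSO4 at -0.53, -0.26 and -0.55, and with statin and ZnSO4 at -0.14 and -0.46. All 11 samples with a metal were below 0 and all 6 without one above 0. The 4 differences were -0.37, -0.42, -0.75 and -0.60, and the comparisons in each statin state share their control samples. The copper interaction was not called (-0.38 ± 0.15, adjusted p = 0.108), and statin with CuSO4 was lower than CuSO4 alone (-0.34 ± 0.11, adjusted p = 0.0201). That call did not hold without CuSO4 replicate 1 (adjusted p = 0.0779), statin with CuSO4 replicate 1 (0.0763) or 3 (0.0832), with only the groups compared in the fit (0.0677) or without slide 3 (0.106). The CuSO4 call did not hold without untreated replicate 1 (-0.33, adjusted p = 0.0684) or 3 (-0.35, 0.0519) or CuSO4 replicate 2 (-0.35, 0.0512) or 3 (-0.34, 0.0533). For ZnSO4 it did not hold without untreated replicate 1 (-0.37, adjusted p = 0.0732) or 3 (-0.40, 0.0565) or ZnSO4 replicate 2 (-0.38, 0.0591). In statin cultures the ZnSO4 call was lost without statin with ZnSO4 replicate 3, a fit that left 1 sample in that group (-0.44).

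In the eIF4 group, which reads the cap and unwinds the leader, 5 of 6 genes rose with CuSO4 (18% of all genes higher). The same 5 were lower with statin and CuSO4 than with CuSO4 alone (23.3% of all genes lower). The latter call was lost for TIF3 in 4 and for TIF4631 in 2 of the fits without 1 sample. TIF1 (YKR059W) and TIF2 (YJL138C) encode the same helicase, eIF4A, and their probes can share signal, so their values are not independent (r = 0.993 over the 17 samples). TIF1 was at -0.22, -0.24 and -0.34 untreated and at 1.14, 0.83 and 0.43 with CuSO4. It was at -0.15, 0.11 and -0.18 with statin and at -0.48, 0.32 and -0.11 with statin and CuSO4, which overlap. The copper difference was 1.07 ± 0.19 for TIF1 and 0.94 ± 0.17 for TIF2 (adjusted p = 0.000425 and 0.000678), and the interactions were -1.08 ± 0.26 and -0.97 ± 0.25 (adjusted p = 0.00893 and 0.0113).

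CDC33 (YOL139C), the cap-binding protein eIF4E, rose with CuSO4 by 0.60 ± 0.15 (adjusted p = 0.00515) and TIF3 (YPR163C), of eIF4B, the helper of the helicase, by 0.96 ± 0.24 (adjusted p = 0.00556). Both had called interactions, of -0.82 ± 0.21 (adjusted p = 0.011) and -1.09 ± 0.34 (adjusted p = 0.0342). TIF3 was the more spread, at -0.71, 0.18 and -0.07 with statin and CuSO4, and its interaction was lost without any 1 of 7 samples, with adjusted p of 0.0695 to 0.0885.

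The 2 genes of eIF4G, the scaffold that joins the cap to the small subunit, differed in their copper values. TIF4631 (YGR162W, eIF4G1) was at -0.50, -0.24 and -0.33 untreated and at 0.65, 1.00 and 0.74 with CuSO4, a 2.22-fold difference (1.15 ± 0.20, adjusted p = 0.00044). TIF4632 (YGL049C, eIF4G2) was at -0.08, 0.17 and -0.28 untreated and at 0.00, 0.34 and -0.21 with CuSO4, and these overlap (0.10 ± 0.14, adjusted p = 0.616). In the other groups TIF4632 was at -0.24, -0.04 and -0.38 with ZnSO4, 0.28, 0.43 and 0.23 with statin, 0.19, 0.32 and 0.29 with statin and CuSO4, and 0.36 and 0.27 with statin and ZnSO4. All 8 samples with statin were thus above 0, with any metal or none. The copper change of TIF4631 exceeded that of TIF4632 by 1.05, with an exact two-sided permutation p of 0.1 over the 6 samples, the smallest that 3 against 3 allows. In CuSO4 against ZnSO4 the pair differed by 0.39 (exact permutation p = 0.4), and in statin with CuSO4 against CuSO4 by -0.86 (exact permutation p = 0.1). Their correlation over the 17 samples was 0.206.

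Of the 8 elongation genes 7 rose with CuSO4 (18% of all genes higher). YEF3 (YLR249W), of eEF3, the ATPase that clears the exit site of fungal ribosomes, was at -0.90, -0.77 and -0.61 untreated and 1.16, 1.02 and 0.77 with CuSO4, the widest gap among the members. It was at -0.55, -0.45 and 0.43 with ZnSO4 and at -0.14, 0.38 and 0.38 with statin. With statin and CuSO4 it was at -0.75, 0.58 and 0.08, and with statin and ZnSO4 at 0.68 and 0.68. Statin samples thus lay above the untreated ones and below the CuSO4 ones, and the statin with CuSO4 samples spread over most of that distance (SD 0.67, the largest of any member in any group).

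TEF1 (YPR080W) and TEF2 (YBR118W) encode the same eEF1A, which carries charged tRNA to the ribosome, and their probes share signal (r = 0.982). TEF1 was at -0.41, -0.54 and -0.41 untreated, 0.45, 0.35 and 0.03 with CuSO4, and -0.51, -0.51 and -0.31 with ZnSO4. With statin it was at -0.34, 0.12 and -0.07, with statin and CuSO4 at -0.14, 0.24 and -0.04, and with statin and ZnSO4 at 0.16 and 0.34. The untreated and ZnSO4 samples overlapped, and the CuSO4 samples lay above both. Copper raised TEF1 by 0.73 ± 0.14 (adjusted p = 0.000796) and TEF2 by 0.73 ± 0.15 (adjusted p = 0.00152), and zinc made a difference of 0.01 ± 0.14 to TEF1 (adjusted p = 0.967). The statin difference in copper cultures was not called for either (-0.25 and -0.23), while in zinc cultures it was 0.69 ± 0.15 for TEF1 (adjusted p = 0.00425). That call was lost without statin with ZnSO4 replicate 3, a fit that left 1 sample in that group (0.61).

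The exchange factor eEF1B, which recharges eEF1A, has a catalytic subunit from EFB1 and gamma subunits from TEF4 and CAM1. EFB1 (YAL003W) rose with CuSO4 by 0.76 ± 0.19 (adjusted p = 0.00559), with samples at 0.65, 0.85 and 0.20 against -0.30, 0.05 and -0.34. In statin cultures its copper difference was -0.39 ± 0.19 (adjusted p = 0.186). TEF4 (YKL081W) was at -0.13, -0.25 and -0.22 untreated, 1.15, 1.06 and 0.73 with CuSO4, and 0.01, -0.12 and 0.29 with ZnSO4. With statin it was at -0.81, -0.41 and -0.45, with statin and CuSO4 at -1.07, -0.13 and -0.54, and with statin and ZnSO4 at 0.06 and -0.20. Copper thus raised TEF4 2.27-fold without statin (1.18 ± 0.20, adjusted p = 0.000273), and with statin the groups with and without CuSO4 overlapped.

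CAM1 (YPL048W), the paralog of TEF4, was at -0.11, 0.00 and 0.27 untreated and at -0.02, 0.32 and 0.29 with CuSO4 (0.15 ± 0.15, adjusted p = 0.483). It was at -0.40, 0.17 and -0.10 with statin and at 0.22, 0.26 and 0.29 with statin and CuSO4, which do not overlap (0.37 ± 0.15, adjusted p = 0.113). CAM1 was not called by limma in any of the 11 comparisons. The copper change of TEF4 exceeded that of CAM1 by 1.04, and the statin change in copper cultures was lower in TEF4 by -1.62. In CuSO4 against ZnSO4 the change of TEF4 was higher by 0.72. These differences each had an exact two-sided permutation p of 0.1, the smallest this design allows.

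EFT1 (YOR133W) and EFT2 (YDR385W) encode the same translocase, eEF2, and share signal (r = 0.985). EFT1 was at -0.28, -0.09 and 0.35 untreated, and at 0.42, 0.79 and 0.80 with CuSO4. These groups did not overlap, and the untreated SD of 0.32 was the largest among the members in that group. The copper differences of EFT1 and EFT2 were 0.68 ± 0.23 and 0.75 ± 0.22 (adjusted p = 0.0335 and 0.0149). EFT1 was no longer called on omitting untreated replicate 1 (adjusted p = 0.133) or 2 (0.0932), or CuSO4 replicate 2 (0.0968) or 3 (0.0919). EFT2 was likewise not called without untreated replicate 1 (0.0696) or 2 (0.0504) or CuSO4 replicate 2 (0.0571).

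**Figure D4:**
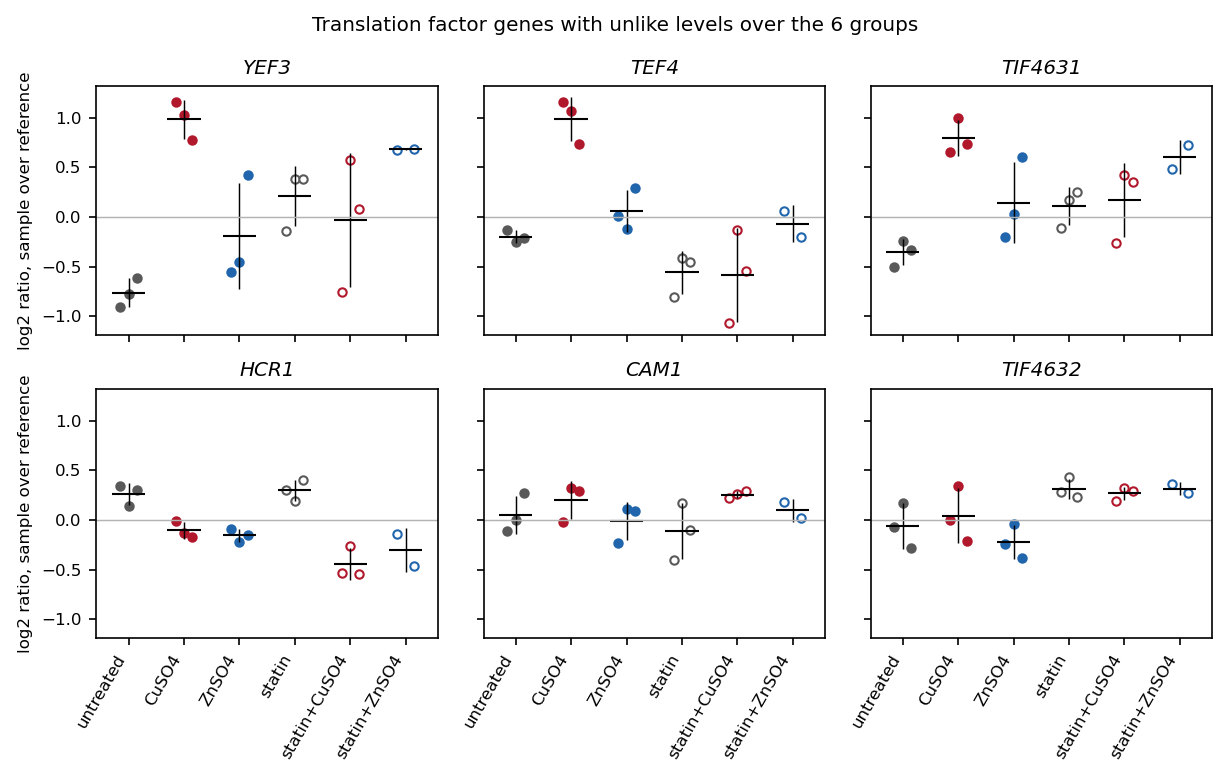
Log2 ratio, sample over reference pool (vertical axis), of YEF3, TEF4, TIF4631, HCR1, CAM1 and TIF4632 in each biological sample, by group (horizontal axis), with the group mean (horizontal bar) and SD (vertical bar). Red is CuSO4, blue ZnSO4, and open symbols are samples with statin. In the top row CuSO4 stands highest (means above 0.7), whereas HCR1 is below 0 in each sample with a metal, and CAM1 and TIF4632 show no such peak.

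Both release factor genes rose with CuSO4 (18% of all genes higher) and had called interactions (10.3% of all genes below 0). SUP45 (YBR143C), of eRF1, which reads the stop codon, was at -0.05, -0.04 and 0.04 untreated and 0.70, 0.63 and 0.47 with CuSO4 (0.61 ± 0.13, adjusted p = 0.00206). SUP35 (YDR172W), of the GTPase eRF3, was at -0.18, -0.16 and -0.13 untreated and 0.55, 0.67 and 0.50 with CuSO4 (0.73 ± 0.16, adjusted p = 0.00295). With statin and CuSO4 SUP45 was at -0.45, 0.17 and -0.14, and SUP35 at -0.37, 0.43 and 0.12, all below the CuSO4 range. The interactions were -0.69 ± 0.19 and -0.85 ± 0.23 (adjusted p = 0.0167 and 0.0168).

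As a description over the 17 samples, which share slides and a reference, the 561 pairs of members had a median Pearson r of 0.689. TIF1 and TIF2 followed the median of the other 33 members most closely (r = 0.947 each), then GCD1 (0.937) and FUN12 (0.926). HCR1 had r = -0.156, TIF4632 0.0857 and CAM1 0.301, the lowest values.

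The ribosomal protein genes are given beside the translation factor genes, with no test between the sets. With CuSO4 135 of 137 were higher and 0 lower (median 1.51, where 18% of all genes were called higher). With statin and CuSO4 against statin limma called 0, with 1 at an unadjusted p under 0.05 (median -0.21), and against CuSO4 131 were lower (median -1.17, 23.3% of all genes lower). The interaction was called below 0 for 133 (median -1.72, 10.3% of all genes). With statin alone 51 were higher and 0 lower (median 0.53, against 0.14 over the 34 translation factor genes), where 18% of all genes were called higher and 18.8% lower. With ZnSO4 1 was higher (median 0.22, 8.81% of all genes higher).

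Among 25 other translation factor and regulator genes, CuSO4 called 9 higher and 2 lower (median 0.29), where 18% of all genes were called higher and 16.6% lower. RLI1, of the iron-sulfur ATPase that recycles ribosomes, rose by 1.52 ± 0.17 (adjusted p = 1.47e-05), STM1, of a ribosome-bound protein of resting cells, by 1.44 ± 0.23 and PAB1, the poly(A)-binding protein, by 0.83 ± 0.20. RLI1 also rose with ZnSO4 (0.96 ± 0.17, adjusted p = 0.00153), with CuSO4 in statin cultures (1.33 ± 0.17, adjusted p = 6.28e-05) and with ZnSO4 in statin cultures (1.56 ± 0.20, adjusted p = 3.98e-05). It was at -0.67, -0.88 and -0.51 untreated and -1.26, -1.03 and -0.91 with statin, below every sample with a metal. Its copper interaction was -0.20 ± 0.25 (adjusted p = 0.645), and that of PAB1 was -0.88 ± 0.28 (adjusted p = 0.0374). The call of PAB1 was lost in 8 of the 17 fits without 1 sample.

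The 2 genes of eIF5A, HYP2 of aerobic and ANB1 of hypoxic cells, are near-identical and can share signal. ANB1 was at -0.19, -0.48 and 0.13 untreated, 1.08, 0.36 and 0.78 with statin, and -0.39, -0.36 and -1.01 with statin and CuSO4. It rose with statin by 0.92 ± 0.21 (adjusted p = 0.00355) and fell when either metal was added to statin cultures, by 1.33 ± 0.21 with CuSO4 (adjusted p = 0.000386) and 1.08 ± 0.24 with ZnSO4 (adjusted p = 0.0044). The last call was lost without statin with ZnSO4 replicate 3, a fit that left 1 sample in that group. HYP2 rose with CuSO4 by 0.46 ± 0.14 (adjusted p = 0.0181) and in statin cultures by 0.58 (adjusted p = 0.008) with CuSO4 and 0.46 (adjusted p = 0.0448) with ZnSO4. Of these calls of HYP2 the first was lost without any of 3 samples and the last without any of 10. HEF3, the paralog of YEF3, had a statin difference of 0.83 ± 0.34 (adjusted p = 0.0695) and a copper difference of -0.40 (adjusted p = 0.389). GCN4, the transcription factor made when eIF2B is inhibited, was called in 1 comparison, statin with ZnSO4 against statin (0.57 ± 0.19, adjusted p = 0.0422), and lost that call in 8 of the 17 fits without 1 sample. Its copper difference was 0.09 ± 0.17.

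The other comparisons of these 25 genes are set against the share called over all genes. Statin called 3 higher, ANB1, the helicase DBP1 (0.54) and YIH1, an inhibitor of the Gcn2 pathway (0.51), and 1 lower (36.8% of all genes called). With 16.6% of all genes called, ZnSO4 called RLI1 and TPA1 (0.48) higher and ITT1 (-0.37) lower, both TPA1 and ITT1 being linked to termination. In statin cultures CuSO4 called 2 higher and 4 lower, with NEW1, of an ATPase related to eEF3, at -0.68 (16.7% of all genes called), and ZnSO4 4 higher and 2 lower, with TPA1 at 0.60 (22%). Statin with CuSO4 against CuSO4 called 2 higher and 12 lower, with DBP1 at 1.01, STM1 at -0.91 and ANB1 at -0.80 (44.3% of all genes called). Statin with ZnSO4 against ZnSO4 called 3 higher and 1 lower, with YIH1 at 0.74, DBP1 at 0.66 and the ribosome rescue gene DOM34 at -0.36 (28.6%). CuSO4 exceeded ZnSO4 in 4, with STM1 at 1.27, PAB1 at 0.65 and TMA22, of a recycling factor, at 0.63 (9.03% of all genes higher). The copper interaction was called below 0 for 6, with ANB1 at -1.72, STM1 at -1.51 and NEW1 at -1.24 (10.3% of all genes below 0).

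Genes that modify translation factors, 20 for diphthamide on eEF2, hypusine on eIF5A, polyamines and methylation, had 11 called higher and 0 lower with CuSO4 (median 0.42, 18% of all genes higher). DPH2, of diphthamide synthesis, went from -0.91, -0.75 and -0.88 to 0.64, 0.76 and 0.72 (1.55 ± 0.14, adjusted p = 1.35e-06). LIA1, the hydroxylase that completes hypusine, rose by 1.49 ± 0.18 and EFM4, a methyltransferase of eEF1A, by 1.37 ± 0.15. DPH2 rose with either metal in either statin state: by 1.08 ± 0.14 with ZnSO4, 1.49 ± 0.14 with CuSO4 in statin cultures and 1.74 ± 0.15 with ZnSO4 in statin cultures (adjusted p = 8.01e-05, 1.25e-06 and 1.05e-06). LIA1 rose with ZnSO4 by 0.80, as did JJJ3, also of diphthamide synthesis, by 0.64. With statin and CuSO4 LIA1 was lower than with CuSO4 alone by -1.12 ± 0.18 and its interaction was -1.27 ± 0.26 (adjusted p = 0.00304).

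EFM4 was the gene of this list with the largest statin difference, 1.10 ± 0.15 (adjusted p = 6.07e-05), with EFM3 at 0.86 and EFM1 at 0.70, both also methyltransferases of elongation factors. Statin called 4 genes of the list higher and 2 lower, where 36.8% of all genes were called, and ZnSO4 5 higher, where 8.81% were called higher. In statin cultures, with 16.7% of all genes called, CuSO4 called 2 higher and 3 lower, with DYS1, the deoxyhypusine synthase, at -0.81 and EFM1 at -0.77, and ZnSO4 7 higher and 1 lower (22% of all genes called), with JJJ3 at 0.75 and EFM6 at 0.74. Statin with CuSO4 against CuSO4 called 1 higher and 10 lower, with the spermidine synthase SPE3 at -1.13 and EFM7 at -1.04 (44.3% of all genes called). Statin with ZnSO4 against ZnSO4 called 6 higher and 4 lower, with EFM4 at 1.23, EFM6 at 1.16 and DPH5 at 0.75 (28.6%). CuSO4 exceeded ZnSO4 in 7 (9.03% of all genes), with EFM4 at 1.01, DPH5 at 0.72 and LIA1 at 0.69. The copper interaction was called below 0 for 7 (10.3% of all genes), with EFM4 at -1.33 and EFM1 at -1.02.

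The 22 cytosolic aminoacyl-tRNA synthetase genes, which charge tRNAs, had 17 higher and 0 lower with CuSO4 (median 0.71, 18% of all genes higher), with THS1 at 1.03 ± 0.19, DED81 at 0.91 and YHR020W at 0.90. With statin and CuSO4 21 were lower than with CuSO4 alone (median -0.80, 23.3% of all genes lower), with VAS1 at -1.04, WRS1 at -1.02 and THS1 at -0.99. In statin cultures CuSO4 called DED81 higher (0.65, adjusted p = 0.0474, 9.44% of all genes higher), a call lost in 14 of the 17 fits without 1 sample. The interaction was below 0 for 5 (10.3% of all genes), with GLN4 at -1.06, YHR020W at -0.88 and VAS1 at -0.86. Zinc called 4 higher without statin (8.81% of all genes), with YHR020W at 0.75, KRS1 at 0.62 and ALA1 at 0.56, and 6 with statin (11.7%), with DED81 at 0.98, KRS1 at 0.96 and CDC60 at 0.77. Statin called TYS1 (-0.61) and GUS1 (-0.39) lower (18.8% of all genes), and in zinc cultures it called TYS1 (-0.62), ARC1 (-0.54) and GUS1 (-0.41) lower (14.2%). CuSO4 exceeded ZnSO4 in 5 (9.03%), with GLN4 at 0.80, FRS2 at 0.72 and WRS1 at 0.70.

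Of 10 listed mitochondrial translation factor genes 9 were matched on the array and 8 tested. CuSO4 called 4 higher (18% of all genes), with MEF1, a mitochondrial elongation factor G, at 0.51 ± 0.09 (adjusted p = 0.000301), RRF1, of ribosome recycling, at 0.43 and TUF1, the mitochondrial EF-Tu, at 0.39. Statin called TUF1 (-0.59 ± 0.11, adjusted p = 0.00058) and MEF1 (-0.35) lower, where 18.8% of all genes were called lower. In statin cultures CuSO4 called MEF1 and TUF1 higher, both at 0.34 (9.44% of all genes higher), and ZnSO4 called MEF1 higher (0.29) and the initiation factor IFM1 lower (-0.37), with 22% of all genes called. Statin with CuSO4 was lower than CuSO4 alone in 5 (23.3% of all genes), with TUF1 at -0.64, RRF1 at -0.59 and MEF1 at -0.51, and in zinc cultures TUF1 was called lower (-0.38, 14.2%). CuSO4 exceeded ZnSO4 in 3 (9.03%), with MEF1 and MEF2 both at 0.43 and TUF1 at 0.41. The copper interaction was called by limma for 0 of the 8, with 1 at an unadjusted p under 0.05.

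Of the 102 called differences of genes outside the 34 that the naming rule covers, 43 stayed called wherever an alternative setting gave a value, 44 were lost without some 1 sample, and none changed sign.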

How the data were processed

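Scanner output of 23 arrays was used. Per the submitters' processing notes, Agilent Feature Extraction 10.5.1.1 read the arrays. The deposited median foreground and background intensities of both channels were used, in place of the mean intensities first planned. The deposited value table holds the authors' log10 ratio with its sign turned to sample over reference, differing from the scanner's by at most 5e-06, and served for no test.

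Background was corrected by normexp (offset 50) and arrays were normalised by loess in limma 3.58.1 (R 4.3.3). The log2 ratios computed from the deposited intensities were turned to sample over reference, and spots, then arrays of 1 sample, were averaged. Genes dim in all groups were left out, leaving 5606 of 6256, and 6 values were missing, none in the members. All 6 groups shared 1 fit (11 residual degrees of freedom), which was tested on simulated data. The simulated noise was independent between samples, so that test does not cover differences shared by a slide. Of simulated log2 changes of 0.5 it recovered 24.2% for the copper interaction and 40.9 to 53% for the other comparisons simulated. A gene not called may thus still differ by that much. Signal over background and the number of arrays limit the precision.

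The members and lists were chosen with earlier results of these data known. Besides the members, the text names the 3 called genes of largest change per list and comparison, and RLI1, GCN4, HYP2, ANB1, HEF3 and PAB1 where their list is described. Gene names came from the file and RefSeq tables (5756 matched). Replicate numbers coincide with slides. Same-numbered samples deviated together (every r over 0.1) for CuSO4 and ZnSO4 against untreated, statin with CuSO4 against statin and against CuSO4, and CuSO4 against ZnSO4. Over replicates 2 and 3 this also held for statin with ZnSO4 against statin (r = 0.16 and 0.32) and against statin with CuSO4 (r = 0.69 and 0.65). P-values measure the spread between the biological samples of a group, in which sample and slide differences are mixed, since the main fit had no slide term. Statin with ZnSO4 replicate 1 was not analysed here.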

Additional observations from a re-analysis of the deposited data

Results flagged for a closer look

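The difference made by CuSO4 was tested for a difference between cultures with and without statin, by the interaction in limma's fit over all tested genes, and 18 translation factor genes passed at an adjusted p under 0.05. All 18 values, on the log2 scale and as the copper difference with statin minus that without, were below 0. In start codon selection and the initiator tRNA complex they were -0.74 for GCD11, -0.66 for TIF5 and -0.95 for FUN12. In eIF2B they were -0.59 for GCD1 and -0.57 for GCD2, and in eIF3 -0.70 for RPG1 and -0.48 for TIF35. In the eIF4 group they were -0.82 for CDC33, -1.08 for TIF1, -0.97 for TIF2, -1.09 for TIF3 and -1.09 for TIF4631. Among elongation genes they were -0.61 for TEF1, -1.16 for EFB1, -1.21 for TEF4 and -1.99 for YEF3, and among release factors -0.85 for SUP35 and -0.69 for SUP45. Groups of 2 or 3 samples are too small for a check of single outlying samples.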

How the results depend on the processing

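The counts of called translation factor genes were repeated under 27 other settings, and none of the 103 called differences of these genes, nor of the 102 of other named genes, changed sign there. These settings reuse the samples that gave the calls. With single samples left out, the counts were 24 to 31 for CuSO4 against untreated, 17 to 30 for statin with CuSO4 against CuSO4, 11 to 28 for the copper interaction and 6 to 20 for CuSO4 against ZnSO4. They were 0 to 5 for statin against untreated, 0 to 4 for ZnSO4 against untreated, 1 to 3 for CuSO4 and 1 to 4 for ZnSO4 in statin cultures, 0 to 7 for statin with ZnSO4 against ZnSO4, 0 to 4 between the metals in statin cultures and 0 to 0 for the zinc interaction. The ranges for comparisons with statin and ZnSO4 include fits that left 1 sample in that group. Here and above, counts from fits without 1 sample are given without the share of all genes called. Whether they moved with the calls over all genes is thus not shown. Median centring in place of loess gave 0 for statin (34.1% of all genes called), 1 for ZnSO4 (16.5%) and 3 for statin with ZnSO4 against ZnSO4 (24.6%). It moved the share of higher calls over all genes between the metals in statin cultures from 48.1 to 58.3%. The replicate block gave 7 for statin (47.1% of all genes called), whose numbers did not pair the samples (r = 0.15, 0.26 and -0.03), and 6 for ZnSO4 (24.3%). It gave 4 for CuSO4 in statin cultures (24.6%) and 24 for CuSO4 against ZnSO4 (25.3%). For the copper interaction it gave 26 (26%), and there and in other comparisons it moved no count by more than 1.5 times. Fitting only the groups compared gave 7 for statin (5 higher, 2 lower, with 38.4% of all genes called), 6 for ZnSO4 (18%) and 1 for CuSO4 in statin cultures (10.2%). Leaving out slide 3, chosen after seeing the data, gave 0 for statin (19.7% of all genes called) and 1 for ZnSO4 (5.32%). It gave 1 for CuSO4 in statin cultures (7.51%), 6 for CuSO4 against ZnSO4 (8.72%) and 3 for the copper interaction (6.8%). It also left fewer samples, with 1 in the group of statin with ZnSO4, so no counts are given for that group. For the other settings the cause was not tested. Quantile normalization of average intensities leaves log ratios as they are. Of 30 copper calls without statin, 19 held under all settings, as did 16 of 25 for statin with CuSO4 against CuSO4 and 3 of 18 interactions.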
